A study of Mus musculus with 6 samples.

Results

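Natural killer and T cell genes were followed through the myometrium, the smooth muscle wall of the uterus, of pregnant Tcf23 knockout (KO) and wild-type (WT) mice. The set holds 39 genes of 55055 in the deposited tables, chosen by gene symbol, and each symbol was found once. They were read in 4 groups: 7 natural killer (NK) cell receptors, 9 cytotoxic genes that NK and T cells share, 8 surface and signalling genes that both cells use, and 15 T cell genes. The study asked how loss of TCF23, a basic helix-loop-helix protein, changes the contracting uterus late in pregnancy. The KO group was made with CRISPR/Cas9 and has 3 animals, and the WT group has 3, with 1 poly(A)-selected library per animal. All 6 are labelled E19.5 in the sample titles, while the design text speaks of gestational day 19. The sources used here do not give the strain or the ages of the dams, and no cell type was separated from the tissue.

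Natural killer cells are innate lymphocytes that read activating and inhibitory surface receptors, many of them coded in one cluster on mouse chromosome 6. They kill with perforin and granzymes, as CD8 T cells do. T cells recognise antigen through a receptor of paired chains that signals through the CD3 proteins and the kinases Lck and Zap70. In the pregnant mouse uterus, NK cells are best known from the decidua at implantation sites, and some also lie in the muscle wall, where T cells are found as well.

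Most of these genes had higher levels in KO than in WT myometrium, but none passed edgeR's test over all genes. Of the 39 genes, 21 were higher in each KO library than in each WT library and 0 were lower in each, where 7.1% of all tested genes were higher and 7.31% lower in this way. Levels are the deposited normalized values, which are read counts scaled by 1 constant per library. Of the 38 genes with enough counts to be tested, 35 had positive log2 changes, with a median of 0.89, against 52.1% positive and a median of 0.01 among 19599 tested genes. A log2 change of at least 1 was fitted for 16 of the 38 and for 3.88% of all tested genes. With no adjustment, 19 of the 38 were higher and 0 lower at a p under 0.05, where 5.27% of all tested genes were higher and 3.29% lower. After Benjamini-Hochberg adjustment over all genes, edgeR's quasi-likelihood test called 0 of the 38, and 0% of all genes as higher and 0.0204% as lower. With limma-voom, 0 of the 38 were called, and the shares of all genes were again 0% and 0.0204%. With the replicate number as a block in edgeR, 0 of the 38 were called, against 0.0102% of all genes as higher and 0.0255% as lower. DESeq2 called 5 of the 39 as higher and 0 as lower, against 1.22% and 0.67% of all genes. Of the tested genes, 7 reached the count limit in all 3 KO libraries and not in all 3 WT libraries. They were Klrb1c, Klra4, Klre1, Cd3e, Cd8a, Cd6 and Cd7. A gene needed any 3 libraries at the limit to be tested, so these 7 entered with at least 1 KO library. Without these 7, the other 31 tested genes had a median log2 change of 0.73, with 28 positive, 13 higher at a p under 0.05 before adjustment, 16 higher in each KO library and 9 at a log2 change of at least 1. With no filter on low counts, all 39 could be fitted, and their median was 0.87, with 36 positive. In whole tissue, more cells of a type and more RNA per cell cannot be told apart.

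**Figure D1:**
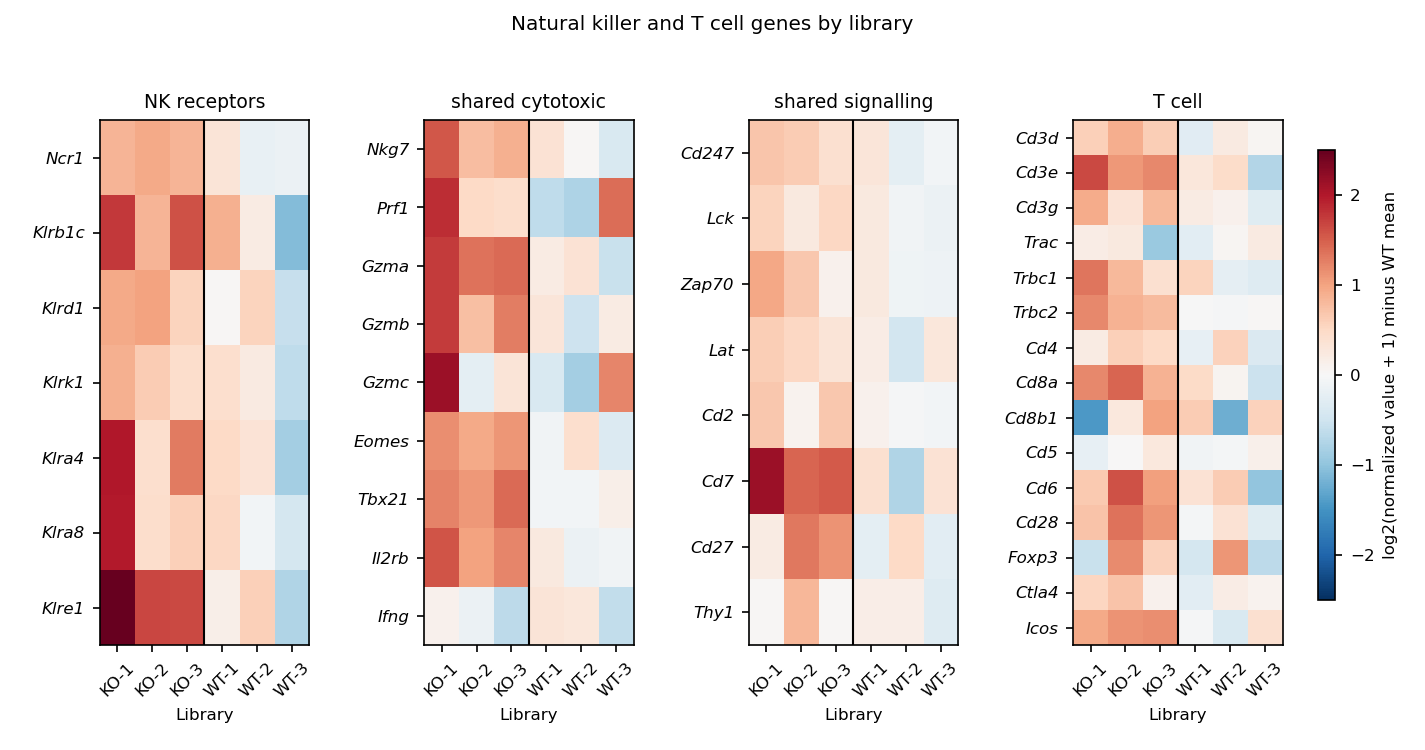
Level of each of the 39 genes in each library, as log2(normalized value + 1) minus the mean of the 3 WT libraries, in 4 panels by gene group, with KO libraries left of the line and WT libraries right of it. Red cells prevail in the KO libraries, most of all KO-1 for the NK receptors, while Ifng, Trac, Cd5 and Cd8b1 show no such pattern.

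The tissue and genotype labels matched the counts. Tcf23 had 0, 2 and 1 counts in KO-1, KO-2 and KO-3, against 4203, 5970 and 3360 in WT-1, WT-2 and WT-3. Total counts ran from 39939686 to 65036402 in KO and from 47345181 to 55236312 in WT libraries. Smooth muscle markers were abundant in all 6 libraries, with Acta2, the smooth muscle actin gene, from 185929 to 437476 normalized values in KO and from 326223 to 365860 in WT. KO-3 was the lowest library for Acta2, and its 9 smooth muscle markers summed to 770576, against 1375310 to 1955090 in the other 5. The lymphocyte genes were scarce in comparison: apart from Thy1, a library held between 3 and 601 counts of each, with a median of 35, so counting error is large for single genes.

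Promoter sequences of 4 members are shown as examples that hold the letters marked below. Of these genes, Ncr1, Nkg7 and Gzma were higher in each KO library, whereas the groups overlapped for Gzmc. Each line holds the 250 bases before the RefSeq start on GRCm38.p6, read along the gene's strand. Capitals mark TGTGGT or its reverse complement ACCACA, the core bound by RUNX factors, which act in NK and T cells, and in Nkg7 also AGGTGTGA, a site of T-box factors such as Tbx21 and Eomes. The windows are chr7:4337465-4337714 on the plus strand for Ncr1, chr7:43436888-43437137 on the plus strand for Nkg7, chr13:113100982-113101231 on the minus strand for Gzma and chr14:56234658-56234907 on the minus strand for Gzmc.
Ncr1: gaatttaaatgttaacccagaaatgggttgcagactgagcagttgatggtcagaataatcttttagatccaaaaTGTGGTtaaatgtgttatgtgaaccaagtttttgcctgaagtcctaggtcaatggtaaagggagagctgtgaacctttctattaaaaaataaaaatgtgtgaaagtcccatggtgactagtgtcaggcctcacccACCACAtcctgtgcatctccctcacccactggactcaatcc
Nkg7: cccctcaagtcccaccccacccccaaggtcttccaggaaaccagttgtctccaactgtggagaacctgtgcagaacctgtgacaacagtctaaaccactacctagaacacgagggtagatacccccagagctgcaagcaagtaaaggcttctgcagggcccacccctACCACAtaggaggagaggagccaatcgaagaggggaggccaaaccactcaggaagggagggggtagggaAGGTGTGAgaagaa
Gzma: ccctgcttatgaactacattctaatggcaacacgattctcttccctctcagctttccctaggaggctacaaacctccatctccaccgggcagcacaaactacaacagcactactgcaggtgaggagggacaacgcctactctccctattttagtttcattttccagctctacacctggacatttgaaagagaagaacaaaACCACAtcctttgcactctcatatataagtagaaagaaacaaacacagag
Gzmc: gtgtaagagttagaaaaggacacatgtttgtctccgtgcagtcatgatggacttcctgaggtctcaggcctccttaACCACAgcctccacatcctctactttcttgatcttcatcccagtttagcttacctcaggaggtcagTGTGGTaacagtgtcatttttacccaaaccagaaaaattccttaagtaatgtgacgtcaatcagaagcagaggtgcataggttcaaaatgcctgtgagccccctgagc
RefSeq windows were matched by symbol for 26 of the 39 genes, 33 windows in all, some of which overlap within a gene. The RUNX letters were in 12 of these 33 windows (36.4%), which belong to 11 genes, and in 14% of all 32851 windows of this length on either strand. The T-box letters were in 1 of the 33 windows, that of Nkg7, and in 1.12% of all windows. These matches describe letters in a short window and say nothing of binding.

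The 7 NK receptor genes all had positive log2 changes, from 0.62 to 2.07, with a median of 1.17. Klre1, Klra4 and Klrb1c, which have the highest changes, reached the count limit in all 3 KO but not all 3 WT libraries. The median of the other 4 was 0.85. All but Ncr1 lie on mm10 chromosome 6 between 128778485, the start of Klrb1c, and 130129898, the end of Klra8. Ncr1, which codes for the activating receptor NKp46 and marks NK cells, had normalized values of 33.8, 36.0 and 33.9 in KO-1, KO-2 and KO-3, against 23.3, 15.9 and 16.6 in WT-1, WT-2 and WT-3. The KO libraries were alike and all above the WT libraries (log2 change 0.90 ± 0.29 SE, edgeR adjusted p = 0.42). Klre1, a lectin-like receptor gene, had 45.8, 24.0 and 23.9 in KO and 7.76, 10.95 and 3.68 in WT. Its groups did not overlap, and its log2 change of 2.07 ± 0.49 was the highest of the 38 (adjusted p = 0.295 by edgeR and 0.0384 by DESeq2). It rests on 4 to 11 counts per WT library.

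Klrb1c codes for NK1.1, an NK cell antigen of some strains, and had 72.4, 37.9 and 64.1 in KO, against 38.8, 23.9 and 9.2 in WT. KO-2 lay just below WT-1, so the groups overlapped (log2 change 1.29 ± 0.51, edgeR adjusted p = 0.542). Klra8, the receptor Ly49H, had 93.3, 31.4 and 35.2 in KO, against 33.3, 21.9 and 16.6 in WT, and its relative Klra4, Ly49D, had 45.8, 14.8 and 27.7 against 15.5, 13.9 and 5.52. Both were highest in KO-1, overlapped through KO-2, and had log2 changes of 1.17 ± 0.51 and 1.35 ± 0.54. Without KO-1 the log2 change of Klra8 was 0.50. Of the 50-base windows of the longest Klra8 transcript, 33.1% also occur in another annotated gene, mostly the pseudogene Klra14-ps, so its share of reads is uncertain, whereas 4.68% of those of Klra4 do. Klrd1 (CD94), which pairs with other lectin-like chains, had 57.9, 60.1 and 44.0 in KO and 29.9, 43.8 and 19.3 in WT. Klrk1 (NKG2D), an activating receptor that CD8 T cells carry too, had 82.0, 68.4 and 59.1 in KO and 58.8, 50.8 and 27.6 in WT. In both genes the lowest KO library lay only just above the highest WT library, and the log2 changes were 0.81 ± 0.35 and 0.62 ± 0.34.

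Among the 9 shared cytotoxic genes, 8 of 9 had positive changes (median log2 1.11), and 6 were higher in each KO library. The shares of all tested genes were 52.1% and 7.1%. Il2rb, the receptor subunit through which IL-2 and IL-15 act on NK and T cells (mm10 chromosome 15, 78479256 to 78495271, minus strand), had 483, 327 and 378 in KO, against 191, 145 and 153 in WT. The lowest KO library was well above the highest WT library. The change was 1.29 ± 0.22 on the log2 scale (adjusted p = 0.18 by edgeR and 5.76e-05 by DESeq2). It was the member with the smallest p in both tools, and the one of DESeq2's 5 calls that remained with each library left out in turn (adjusted p at most 0.0108). The other 4 calls were Klre1, Gzma, Gzmb and Cd7. With 1 library left out, DESeq2 called 1 member in 5 of 6 cases, where it called 0.527 to 1.59% of all genes as higher, and 4 members without KO-2, where it called 1.62%.

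The granzymes, serine proteases that enter the target cell, fell into differing library patterns. Gzma had 53.9, 40.66 and 42.7 in KO, against 17.7, 19.9 and 10.1 in WT (log2 change 1.53 ± 0.34; adjusted p = 0.279 by edgeR and 0.0298 by DESeq2). Gzmb had 162, 80.4 and 117 in KO, against 58.8, 32.9 and 55.2 in WT (log2 change 1.29 ± 0.35; adjusted p = 0.344 by edgeR and 0.0393 by DESeq2). In both, the 3 KO libraries stood above the 3 WT libraries. Gzmc had 395, 74.8 and 111 in KO, against 67.6, 48.8 and 209 in WT, and Prf1, which codes for the pore-forming perforin, had 159, 61.9 and 59.1 against 27.7, 24.9 and 116. For these genes KO-1 was highest and WT-3 next, above KO-2 and KO-3, so the groups overlapped. The log2 change of Gzmc was 0.84 ± 0.75, and −0.22 without KO-1. That of Prf1 was 0.73 ± 0.68, 0.11 without KO-1 and 1.83 without WT-3. Their edgeR adjusted p-values were 0.868 and 0.875.

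**Figure D2:**
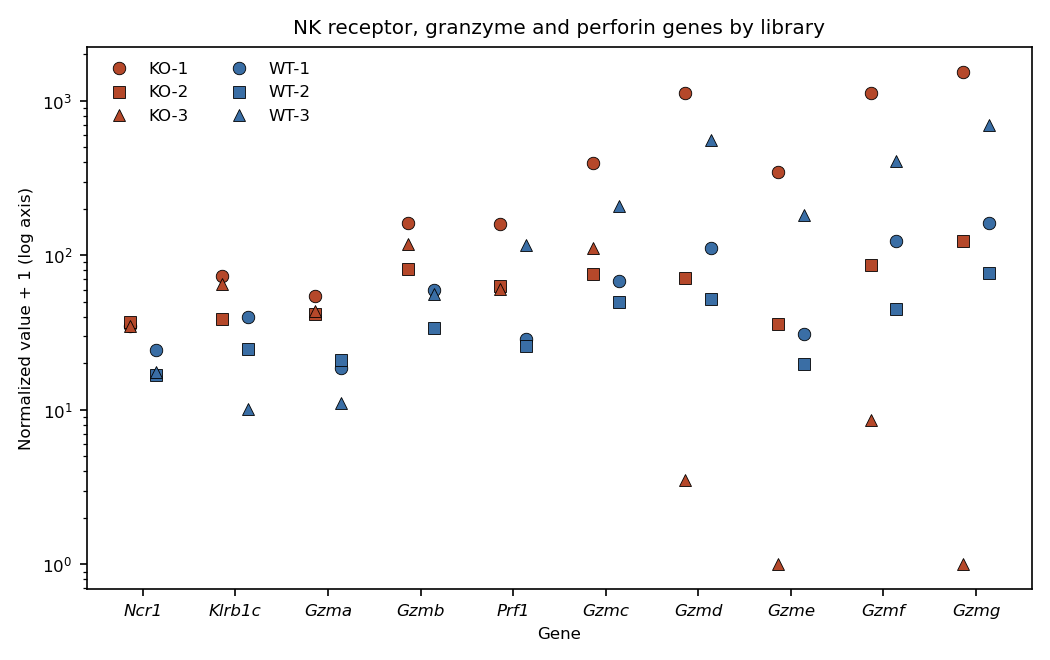
Normalized value + 1 on a log axis for 2 NK receptor genes, the granzymes and perforin, with KO libraries in red left of WT libraries in blue and a symbol for each replicate number. Ncr1, Gzma and Gzmb separate the genotypes, whereas from Prf1 rightward KO-1 and WT-3 are the upper 2 points and KO-3 drops to 0 counts for Gzme and Gzmg.

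Gzmd to Gzmg, granzymes known in mice from granular NK cells of the decidua, were higher in KO-1 and WT-3 than in the other libraries by a wider margin. They are no members and were picked after their values were seen. Their 4 normalized values summed to 4136, 312 and 10.1 in KO-1, KO-2 and KO-3, against 422, 189 and 1828 in WT-1, WT-2 and WT-3. KO-3 had 0 counts of Gzme and of Gzmg. Of 13 markers of placenta and decidua 9 were tested, and Prl3d1 was at 0 in all 6 libraries. The sum of the 13 was 19011, 4689 and 1245 in KO-1, KO-2 and KO-3, against 2513, 1631 and 2899 in WT-1, WT-2 and WT-3. Tpbpa, the marker of the placental spongiotrophoblast, had 12602, 368 and 12.6 in KO, against 1441, 477 and 1708 in WT. Prl8a2, a prolactin-family gene of the decidua, had 3748, 4159 and 1188 in KO, against 569, 192 and 859 in WT. It was higher in each KO library (DESeq2 adjusted p = 0.000594) and made up most of the placental and decidual sum of KO-2 and KO-3. KO-1 was the highest library both in this sum and in that of Gzmd to Gzmg. KO-2 came next in the marker sum, mostly through Prl8a2, and lay below WT-1 and WT-3 for the granzymes. The markers were also read as log2(normalized value + 1) minus the WT mean. The median of the 9 tested was then 2.18, −1.52 and −3.30 in KO-1, KO-2 and KO-3. It was 0.32, 0.11 and −0.19 in WT-1, WT-2 and WT-3. The part of decidual or placental tissue in the NK and cytotoxic genes was not tested.

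The genes of a pair of transcription factors in cytotoxic lymphocytes had groups that did not overlap, tight in both genotypes for Tbx21 but only in KO for Eomes. Tbx21 (T-bet) had 28.9, 25.9 and 32.7 in KO, against 11.1, 10.95 and 12.9 in WT (log2 change 1.31 ± 0.29, edgeR adjusted p = 0.279). Eomes had 35.4, 30.5 and 33.9 in KO, against 14.4, 20.9 and 11.96 in WT (log2 change 1.08 ± 0.32, edgeR adjusted p = 0.376). Both were above all 3 WT libraries in each KO library. Nkg7, a granule protein of cytotoxic cells, had 123, 71.1 and 76.7 in KO, against 53.2, 41.8 and 31.3 in WT (log2 change 1.11 ± 0.33, edgeR adjusted p = 0.381). Ifng, the cytokine gene of activated NK and T cells, was the exception of its group, with 11.3, 9.24 and 6.29 in KO and 13.3, 12.9 and 6.44 in WT. The log2 change was −0.24 ± 0.43 on 5 to 14 counts per library, and the groups overlapped.

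**Figure D3:**
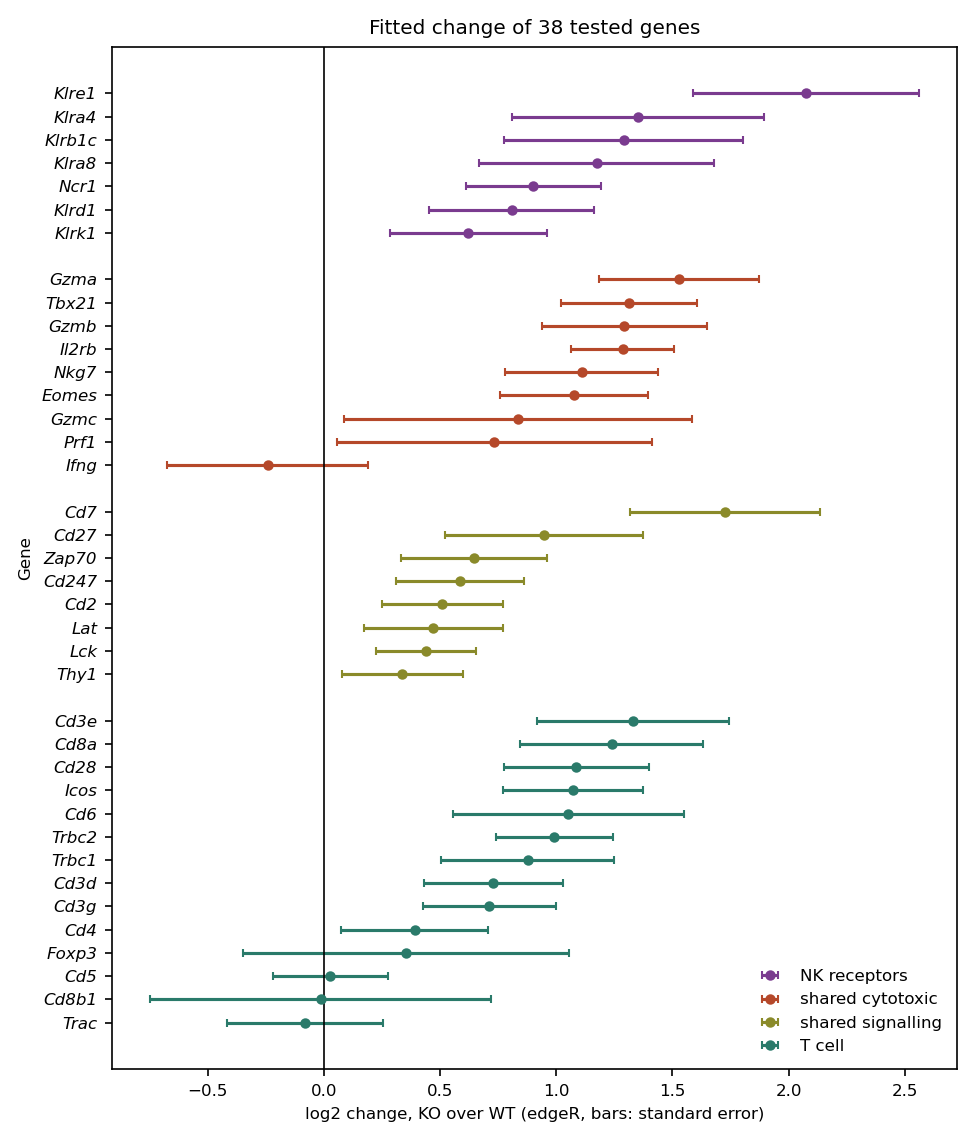
Fitted log2 change, KO over WT, of the 38 tested genes with bars of 1 standard error, by gene group. The values run from −0.24 for Ifng to 2.07 for Klre1, and the bars of Ifng, Foxp3, Cd5, Cd8b1 and Trac cross 0.

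Signalling genes that both cell types use had smaller changes, from 0.34 to 1.73 on the log2 scale with a median of 0.55. Cd7, a surface protein of NK and T cells, stood out with 65.9, 40.66 and 42.7 in KO, against 18.8, 7.97 and 18.4 in WT. Its groups did not overlap (log2 change 1.73 ± 0.41; adjusted p = 0.297 by edgeR and 0.0214 by DESeq2). Cd7 reached the count limit in all 3 KO but not all 3 WT libraries, and without it the median was 0.51. Lck, the kinase that starts T cell receptor signalling, had 194, 156 and 189 in KO and 156, 123 and 119 in WT, and Zap70, the kinase that follows it, 64.3, 52.7 and 35.2 against 38.8, 29.9 and 29.4. Both overlapped, through KO-2 for Lck and KO-3 for Zap70, with log2 changes of 0.44 ± 0.22 and 0.65 ± 0.31. The adaptor gene Lat (0.47 ± 0.30), the adhesion gene Cd2 (0.51 ± 0.26) and the co-stimulatory receptor gene Cd27 (0.95 ± 0.43) also had positive log2 changes. Cd247, the zeta chain of the receptor complex, had a log2 change of 0.58 ± 0.28. It is uncertain because 56.4% of its exon bases are also exon of Pou2f1 on the other strand, and how the counting used strand is not known here.

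Thy1 is on T cells but also on fibroblasts, and its scale differed from the rest. It had 5615, 9770.4 and 5592 in KO, against 6164, 6147 and 4372 in WT, with overlapping groups (log2 change 0.34 ± 0.26, edgeR adjusted p = 0.824). The sum of 7 fibroblast markers ran from 726740 to 883261 in KO and from 658633 to 1063490 in WT, and its part in Thy1 was not tested. Thy1 made up 63.6 to 81.1% of the sum over all 39 genes in KO and 73.9 to 81.1% in WT. Per kilobase of exon its mean level was 2335 in KO and 1857 in WT, against 178 and 189 for Trac, the next in WT, and 216 and 121 for Gzmc, the next in KO. Sums of the signalling genes are therefore given without Thy1.

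The T cell genes were higher in KO for most receptor and co-receptor chains, with a median log2 change of 0.80 over the 14 tested, 12 of them positive. Without Cd3e, Cd8a and Cd6, which reached the count limit in all 3 KO but not all 3 WT libraries, the median was 0.71. The CD3 chains carry the receptor's signal into the cell. Cd3e had 33.0, 22.2 and 23.9 in KO, against 12.2, 13.9 and 5.52 in WT (log2 change 1.33 ± 0.41, edgeR adjusted p = 0.408). Cd3d had 27.3, 34.2 and 27.7 against 14.4, 20.9 and 18.4, and Cd3g 79.6, 52.7 and 72.9 against 47.7, 44.8 and 33.1. In all 3 the genotypes did not overlap, and the sum of the CD3 chains was 1.77 times as high in KO as in WT.

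The receptor chain genes did not share one pattern. The sum of Trac, Trbc1 and Trbc2 was 1.21 times as high in KO as in WT by the mean, but the groups overlapped. KO-3, at 195, lay below all 3 WT libraries, which ran from 229 to 264. Trbc2 had 73.2, 58.2 and 55.3 in KO, against 31.0, 30.9 and 32.2 in WT, with no overlap (log2 change 0.99 ± 0.25, edgeR adjusted p = 0.321). Trbc1 had 93.3, 63.8 and 47.8 against 53.2, 30.9 and 28.5, where KO-3 lay below WT-1 (log2 change 0.88 ± 0.37). Trac, the alpha chain constant region, had 200.2, 206 and 91.8 in KO, against 145, 181 and 203 in WT. Its KO-3 value was the lowest of the 6 libraries, whereas the beta chain genes were above WT-2 and WT-3 there. The log2 change of Trac was −0.08 ± 0.33, 0.20 without KO-3 and 0.03 without WT-3. The ratio of Trac to the summed CD3 chains was 1.43, 1.89 and 0.74 in KO and 1.96, 2.28 and 3.56 in WT. It was lower in each KO library than in each WT library, but only just for KO-2 against WT-1.

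Trbc1 and Trbc2 can hardly be told apart by reads from their first exon, which is why a part of it is shown. Bases 226 to 375 of exon 1 are given, at chr6:41538443-41538592 for Trbc1 and chr6:41546955-41547104 for Trbc2 on the plus strand of mm10, with the differing base in capitals.
Trbc1: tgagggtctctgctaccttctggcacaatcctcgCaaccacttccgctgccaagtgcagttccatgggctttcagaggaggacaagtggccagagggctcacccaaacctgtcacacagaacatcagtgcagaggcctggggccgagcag
Trbc2: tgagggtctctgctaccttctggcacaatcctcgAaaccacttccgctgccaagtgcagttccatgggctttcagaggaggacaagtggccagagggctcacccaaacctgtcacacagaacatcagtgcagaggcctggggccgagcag
The 2 genes differ at 1 of the 375 bases of this exon, and 41.1% of the 50-base windows of Trbc1 and 44.0% of those of Trbc2 occur in the other gene. How the authors' counting treated such reads is not known here.

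The co-receptor genes were unlike each other. Cd8a, which marks cytotoxic T cells, had 20.9, 24.9 and 16.3 in KO, against 12.2, 8.96 and 5.52 in WT, without overlap (log2 change 1.24 ± 0.39, edgeR adjusted p = 0.417). Its partner Cd8b1 had 2.41, 10.2 and 17.6 against 13.3, 2.99 and 12.9 and showed no order by genotype (log2 change −0.01 ± 0.73). Cd4, the helper T cell co-receptor, had 81.2, 107 and 101 against 61.0, 106 and 54.3, and WT-2 lay within the KO range. Cd5, a surface regulator of T cells, had 51.5, 60.1 and 71.7 in KO and 56.5, 57.8 and 65.3 in WT, and its groups were level (log2 change 0.03 ± 0.25). Cd6, its relative, had 19.3, 37.9 and 25.1 against 15.5, 18.9 and 5.52, with KO-1 close to WT-2 (log2 change 1.05 ± 0.50).

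The co-stimulation genes Cd28 and Icos were higher in each KO library, unlike Cd27, for which KO-1 lay below WT-2. Cd28 had 51.5, 81.3 and 67.9 in KO, against 29.9, 39.8 and 24.8 in WT (log2 change 1.09 ± 0.31, edgeR adjusted p = 0.363). Icos, which is induced on activated T cells, had 49.0, 55.4 and 56.6 against 24.4, 18.9 and 33.1 (log2 change 1.07 ± 0.30, edgeR adjusted p = 0.356). KO-1 was the lowest KO library for both, unlike its place in the NK receptor genes. Foxp3, the regulatory T cell factor, had 4.02, 15.7 and 10.1 in KO and 4.43, 14.9 and 3.68 in WT, where the spread within a genotype was as wide as the range between them. Foxp3 shares exon bases with Ccdc22, Ppp1r3f and Flicr, whose counts exceed its own 53 counts over 6 libraries, so its values are uncertain. Ctla4, an inhibitory receptor, was too low to be tested, with 10.5, 12.01 and 7.54 in KO and 5.54, 7.97 and 7.36 in WT.

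**Figure D4:**
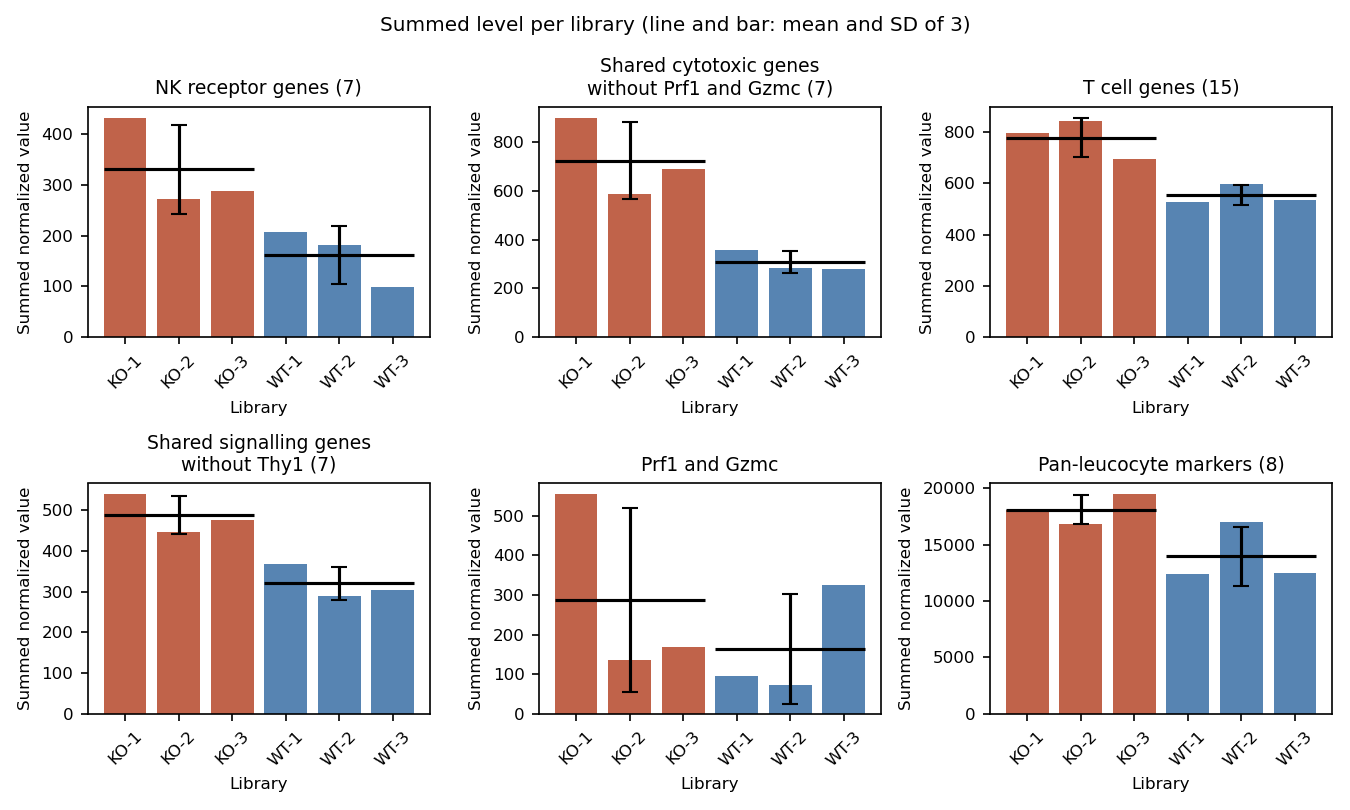
Summed normalized value per library for 4 gene groups, for Prf1 with Gzmc and for 8 pan-leucocyte markers, with KO bars in red left of WT bars in blue, lines at the mean of 3 and bars of 1 SD. The upper row and the signalling genes separate the genotypes, while Prf1 with Gzmc and the pan-leucocyte markers overlap.

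Library by library, the groups did not peak in the same animal. The 7 NK receptor genes summed to 431, 273 and 288 in KO-1, KO-2 and KO-3, against 207, 181 and 98.5 in WT-1, WT-2 and WT-3. The 15 T cell genes summed to 797, 842 and 693 in KO, against 527, 598 and 534 in WT. Both sums were higher in each KO library, 2.04 times as high by the mean for NK receptors and 1.41 times for T cell genes, but KO-1 led the first and KO-2 the second. KO-1 was the highest library for 5 of the 7 NK receptor genes and for 4 of the 14 tested T cell genes, and KO-2 for 2 and 7. WT-3 was the lowest library for 6 of the 7 and for 8 of the 14. The shared cytotoxic genes without Prf1 and Gzmc summed to 897, 585 and 688 in KO, against 359, 285 and 281 in WT. All 9 summed to 1451, 722 and 857 in KO, against 455, 358 and 605 in WT. The signalling genes without Thy1 summed to 539, 447 and 476 in KO, against 367, 289.8 and 305 in WT. The ratio of the NK receptor sum to the T cell sum was 0.54, 0.32 and 0.42 in KO and 0.39, 0.30 and 0.18 in WT, which overlap.

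Markers of other leucocytes went along with these sums for some cell types and against them for mast cells. Of 8 pan-leucocyte markers, all 8 tested had positive changes (median log2 0.43), and their sum was 18025, 16844 and 19435 in KO, against 12414, 16976 and 12464 in WT, with KO-2 below WT-2. Relative to that sum, NK receptors amounted to 2.39, 1.62 and 1.48% in KO and 1.67, 1.07 and 0.79% in WT, and T cell genes to 4.42, 4.998 and 3.56% in KO and 4.24, 3.53 and 4.28% in WT. Both shares overlapped between genotypes. The cytotoxic genes without Prf1 and Gzmc amounted to 4.98, 3.47 and 3.54% of it in KO and 2.89, 1.68 and 2.25% in WT, with no overlap. Prf1 and Gzmc were left out after their values were seen. With them in the sum, WT-3 lay above KO-2 and KO-3 in this share, so the groups overlapped. Of 8 neutrophil markers 5 were tested, 4 of them with positive changes, and their median log2 change was 2.09. The sum of the 8 ran from 1035 to 1647 in KO and from 360 to 598 in WT. Elane was at 0 in 3 libraries. DESeq2 called 4 of 6 neutrophil and 2 of 8 pan-leucocyte markers as higher, against 1.22% of all genes. Of 8 B cell markers 4 were tested, all with positive changes (median log2 0.79). The sum of the 8 ran from 456 to 502 in KO and from 265 to 332 in WT, and DESeq2 called 0 of 5. Of 8 mast cell markers, 7 had negative changes (median log2 −1.03) and Hdc a positive one, and their sum ran from 2643 to 5625 in KO and from 5095 to 8934 in WT. DESeq2 called 1 of them, Tpsab1, as lower. Macrophage markers, led by C1qb and C1qa, overlapped, from 66684 to 80816 in KO and from 61969 to 85772 in WT. Of 8 markers of type 2 innate lymphoid cells, which also lack antigen receptors, 5 were tested, 4 of them with positive changes. The fifth, Il1rl1, was lower in each KO library, from 157 to 191 in KO and from 210 to 404 in WT. The sum of the 8 ran from 2940 to 5895 in KO and from 2681 to 4067 in WT, most of it Hpgds. The part of a general change in leucocytes in the NK and T cell values was not tested.

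Other genes of these cells were read from a list of 58, of which 49 had enough counts. Of the 49, 46 had positive log2 changes (median 0.54), 9 had a p under 0.05 before adjustment with higher levels in KO and 1 with lower levels, where the shares of all tested genes were 5.27% and 3.29%. The edgeR test called 0 of them after adjustment over all genes. DESeq2 called 1 of 52, a share near the 1.22% it called of all genes. This was Il18rap, a subunit of the receptor for IL-18, which activates NK cells. It had 78.8, 75.8 and 94.3 in KO, against 37.7, 32.9 and 34.1 in WT, with wide separation (log2 change 1.25 ± 0.24; adjusted p = 0.215 by edgeR and 0.00588 by DESeq2). Klra7, an inhibitory Ly49 receptor gene, had 37.0, 21.3 and 37.7 against 7.76, 11.9 and 9.2 (log2 change 1.71 ± 0.37). The chemokine gene Ccl5, made by cytotoxic lymphocytes, had 314, 134 and 215 against 119, 121 and 63.5, where KO-2 was just above WT-2 (log2 change 1.13 ± 0.38). Cd96 (1.502 ± 0.48), Klri2 (1.03 ± 0.35), Lag3 (0.75 ± 0.26) and Il7r (0.99 ± 0.37), receptor genes of NK or T cells, were higher in each KO library. Klra7, Cd96 and Klri2 reached the count limit in all 3 KO but not all 3 WT libraries. The counts over the 49 were not taken again without such genes. Itga2, an integrin on NK cells that other cells express too, had a log2 change of −0.83 ± 0.34 at a far higher level, 1475 to 3453 in KO and 2972 to 5664 in WT.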

How the data were processed

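RNA-seq counts of 3 KO and 3 WT myometrium libraries were used. The authors deposited, library by library, raw counts for Ensembl genes, and 1 table of normalized values, a signal equal to the count times 1 constant per library (0.804 to 1.26). Per the submitters' processing notes, mm10, HISAT2 2.2.1, HTSeq 0.9.1, FastQC 0.73 and DESeq2 2.11.40.7 were used, without stated roles.

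The test on these counts was that of edgeR 4.0.16 under R 4.3.3 (filterByExpr, TMM, quasi-likelihood F test, ~ genotype, Benjamini-Hochberg threshold 0.05 over 19599 genes). The biological coefficient of variation was 26.3%. Deposited normalized values served for levels and sums. Alternatives used limma 3.58.1, DESeq2 1.42.0, other scalings and filters, and each library left out. The fit was tried on simulated counts with changes placed only in genes of a mean log2 CPM above 0. Many members lie lower, so it was not tried at their level. Exon overlaps, lengths and shared windows came from GENCODE M21. Start positions in the deposited table count from 0 and were moved to 1.

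Members and gene lists were chosen with earlier results of these data known. Named are all 39 members and, of the other NK and T cell genes, the 8 with the smallest p at a mean CPM of at least 0.3.

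No 2 libraries of a genotype agreed within sampling noise (chi-square over its degrees of freedom, 36.3 to 234). Libraries with the same replicate number deviated together only weakly (correlation across genes 0.147, 0.196 and 0.217, against −0.223 to 0.0611 for the others). No sample label pairs KO with WT animals, and correlations this small cannot show a pairing. Blocking on these numbers was therefore only an alternative, and whether they mark true pairs is not known.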

Additional observations from a re-analysis of the deposited data

How the results depend on the processing

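No member was called higher or lower by edgeR under any of the alternatives run with it. Over all genes the counts of higher and lower calls were 0 and 4; they were 4 and 8 with upper-quartile scaling, 47 and 34 with no filter, 245 and 135 with DESeq2, and 0 to 3 and 1 to 4 with a library left out (1 lower without WT-1 and without WT-2). With the replicate block 2 genes were higher and 5 lower, and no member's call changed; 21 members then had an unadjusted p under 0.05 with higher levels (6.25% of all genes). DESeq2 called 5 members and 1 other NK or T cell gene, and 1 to 4 members with a library left out. With a limit of 1 CPM in 3 libraries, 15 members were tested, 6 of them higher at an unadjusted p under 0.05 (4.82% of all genes), and the T cell median was 0.56. In the unchanged fit, the members passing that limit had medians of 0.71 in all, 0.62 for NK receptors (Klrk1 alone) and 0.55 for T cells; the cause was not tested, though fewer genes enter. Members with an unadjusted p under 0.05 numbered 13 to 20 with a library left out (3.55 to 6.84% of all genes). The log2 ratio of the summed members was 0.44, and 0.79 without Thy1. Directions reversed for Gzmc (−0.22 to 1.74 with a library left out), Trac (−0.26 to 0.20), Cd5 (−0.10 to 0.15), Foxp3 (−0.20 to 1.26) and Cd8b1 (−0.64 to 0.50; 0.015 with upper-quartile scaling and 0.021 with DESeq2). The unadjusted counts, DESeq2 with a library left out and the sums without Thy1 or without Prf1 and Gzmc were added after seeing the data. So were the values without the 7 members that reached the count limit in all 3 KO but not all 3 WT libraries. Counts below 20 in at least 1 library limit 19 of the 39 members.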

Other observations

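Constant-region genes of the gamma-delta T cell receptor had changes of both signs. They were chosen here after their values were seen. Trdc, the delta chain constant region, had normalized values of 78.8, 55.4 and 56.6 in KO-1, KO-2 and KO-3, against 174, 97.6 and 64.4 in WT-1, WT-2 and WT-3, and the groups overlapped through KO-1 and WT-3 (log2 change −0.80, edgeR adjusted p = 0.647). Trgc1, a gamma chain constant region, had 76.4, 46.2 and 36.5 in KO, against 35.5, 32.9 and 24.8 in WT, each KO library being the higher (log2 change 0.78, edgeR adjusted p = 0.608). Trgc2, another, had 24.1, 14.8 and 15.1 in KO, against 11.1, 13.9 and 12.9 in WT, again higher in each KO library (log2 change 0.52, edgeR adjusted p = 0.78). None of the 3 changes passed the test.

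Xcl1, a chemokine gene of NK cells too low for the naming rule, had 20.9, 12.01 and 22.6 in KO, against 4.43, 5.97 and 4.60 in WT (log2 change 1.86, edgeR adjusted p = 0.27). With 4, 6 and 5 counts in WT-1, WT-2 and WT-3, it reached the count limit only in KO libraries and was tested through these alone. Genes for the cytokine IL-15, which keeps NK cells alive, and for its receptor chain overlapped between genotypes: Il15 had 328, 323 and 322 in KO, against 269, 334 and 250.3 in WT, and its receptor chain gene Il15ra had 330.4, 405 and 479 against 215, 336 and 283.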
